A study of Mus musculus with 2 samples.

Results

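The clustered protocadherins are cell-surface adhesion proteins of the cadherin superfamily whose genes lie side by side in the alpha, beta and gamma clusters, on chromosome 18 in the mouse. The members were the rows whose symbol begins with Pcdha, Pcdhac, Pcdhb, Pcdhga, Pcdhgb or Pcdhgc followed by a number. The rule found 55 of 34376 rows of the gene table, 57 of 55830 rows of the promoter table and 60 of 83402 rows of the transcript table. Of the 55 genes, 11 belong to the alpha cluster (9 alpha and 2 alpha C), 22 to the beta cluster and 22 to the gamma cluster (12 gamma A, 7 gamma B and 3 gamma C). Pcdha3, Pcdha4 and Pcdha6 are not analysed here.

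Poly(A) RNA came from E14 cells, a mouse embryonic stem (ES) cell line of the 129P2/OlaHsd strain, from a study that, by its title, asks how the sequence of sites bound by CTCF, a zinc-finger protein that organises chromatin loops, relates to their role in differentiation. The Differentiated library (1 sample) was made from cells kept on gelatin without feeder cells in 10% serum with 0.1 µM all-trans retinoic acid for 4.5 days. It is a mixed population with about 8% dead cells. The Undifferentiated library (1 sample) was made from cells kept on mitomycin-treated embryonic fibroblasts in 15% serum with leukaemia inhibitory factor, with about 2% dead cells and fewer than 0.25% feeder cells estimated after their removal. Both cultures were at passage 29, and 5 µg of total RNA was used for each. Each library was read on 2 lanes as 36 bp single reads.

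In the alpha and gamma clusters each variable first exon has its own promoter and encodes the whole extracellular domain, the membrane span and part of the cytoplasmic tail. It is spliced to constant exons shared by the whole cluster, which encode the rest of the tail. Beta genes have no constant exons. In neurons each cell uses a few of these promoters, a choice in which CTCF and cohesin take part, and the set of proteins shown on the surface lets neurites of the same cell recognise and avoid each other. The C-type genes, at the downstream ends of the alpha and gamma clusters, are less subject to this choice.

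Values are given as the authors deposited them, with no unit named. They were read as RPKM, that is, reads scaled by the length of the gene model and by the depth of the lane. This reading rests on single-exon genes, and the lengths used for the alpha and gamma models are not given. Each ± gives the SD between the lanes of a library (n = 2), which carries sequencing and read assignment error but no difference between cultures. With 1 library per condition the conditions cannot be tested against each other, so there are no p-values. A log2 ratio is log2 of (Differentiated RPKM + 1) over (Undifferentiated RPKM + 1). A gene was called higher or lower where it reached 1 RPKM in either library and differed by at least 2-fold on this scale. Because these are bulk samples, fewer cells that express a gene and less RNA per cell cannot be told apart.

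The lanes implied 33000000 and 32000000 reads for the Differentiated library and 37800000 and 36100000 reads for the Undifferentiated library. All 6 pluripotent cell markers were lower, with summed levels of 265 RPKM in Differentiated and 3560 RPKM in Undifferentiated cells. All 8 extraembryonic endoderm markers were higher, with sums of 3236 RPKM in Differentiated and 24.8 RPKM in Undifferentiated cells. Of the 13 neuron markers 1 was higher, 4 were lower, 3 lay between and 5 were below 1 RPKM in both libraries. Their lane sums ran over 60.8 to 64.8 RPKM in Differentiated and 327 to 329 RPKM in Undifferentiated cells, and none was at 0. Most of the Undifferentiated sum came from Stmn2, at 248 RPKM (log2 ratio -4.05), so the sum does not stand for the whole list. Tubb3, Ina and Elavl3 were the other lower neuron markers. The higher one was Gap43, with 16.7 RPKM in Differentiated and 2.69 RPKM in Undifferentiated cells (log2 ratio 2.26). Rbfox3 averaged 0.106 ± 0.147 RPKM in Differentiated and 0.0417 ± 0.0135 RPKM in Undifferentiated cells (SD, n = 2 lanes each). It was below 1 RPKM in both libraries, and its lanes overlapped. Of the 7 neural progenitor markers 1 was higher and none was lower, with sums of 42.4 RPKM in Differentiated and 11.8 RPKM in Undifferentiated cells. Of 7 fibroblast markers 3 were higher and none was lower, with sums of 496 RPKM in Differentiated and 212 RPKM in Undifferentiated cells. The part of these cell types in the protocadherin values was not tested.

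The summed protocadherin RNA was 34.8 ± 0.295 RPKM in Differentiated cells and 12.2 ± 0.0386 RPKM in Undifferentiated cells (SD, n = 2 lanes each), a ratio of 2.84. The gamma cluster held most of it, with 31.5 ± 0.215 RPKM in Differentiated and 11.7 ± 0.0778 RPKM in Undifferentiated cells, a ratio of 2.69. The beta cluster summed to 3.01 ± 0.122 RPKM in Differentiated and 0.372 ± 0.0240 RPKM in Undifferentiated cells, a ratio of 8.11. The alpha cluster was close to silent, at 0.279 ± 0.0429 RPKM in Differentiated and 0.144 ± 0.0152 RPKM in Undifferentiated cells, a ratio of 1.94. In each cluster both lanes of the Differentiated library lay above both lanes of the Undifferentiated library. The lane-by-lane ratios were 2.71 and 2.66 for gamma, 7.98 and 8.25 for beta, and 1.61 and 2.33 for alpha.

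**Figure D1:**
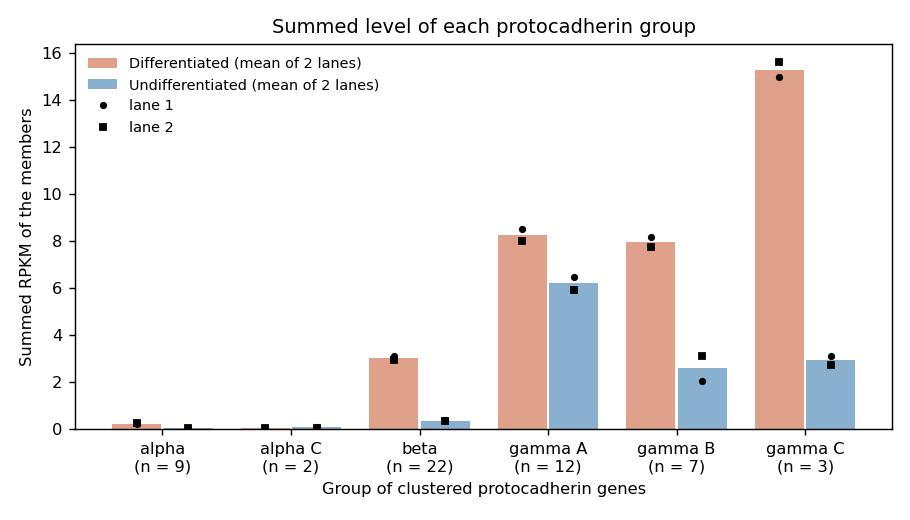
Summed RPKM (linear axis from 0) of the protocadherin subfamilies, with bars at the mean of 2 lanes and marks for each lane, Differentiated to the left of Undifferentiated. The gamma C sum is 15.3 RPKM in Differentiated and 2.93 RPKM in Undifferentiated cells, the beta sum is 3.01 RPKM in Differentiated and 0.372 RPKM in Undifferentiated cells, and the alpha and alpha C sums stay below 0.3 RPKM.

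Few single genes were strong enough to be called. Only 8 of the 55 members reached 1 RPKM in either library, 7 of them in the gamma cluster and 1 in the beta cluster. Of these 8, 5 were higher (against 19.1% of the 17899 genes at this level), 1 was lower (against 8.48%) and 2 lay between. Of the 8, 6 passed the level only in the Differentiated library, where they had to be the higher ones, so their count is not read as a result about the family. The median log2 ratio was 0.10 over all 55 members, 0.02 over the alpha, 0.10 over the beta and 0.41 over the gamma cluster, beside 0.02 over all 34126 genes. Centred on the median of genes at 1 RPKM or more, a shift of 0.124, these medians were -0.028, -0.11, -0.026 and 0.28. Only the gamma median kept its sign. Median Differentiated levels were 0.0229 RPKM in alpha and 0.0848 RPKM in beta genes. At these levels a pseudocount of 1 RPKM keeps the median log2 ratio below that shift, whatever the Undifferentiated level. The signs of the centred alpha and beta medians were thus fixed in advance.

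Among the 47 members below 1 RPKM in both libraries, both Differentiated lanes lay above both Undifferentiated lanes in 31, or 66.0% (against 25.8% of the 16227 genes below this level with any reads). The opposite order held in 5 of the 47 (against 17.5%). By cluster the first order was found in 19 of 21 beta, 9 of 15 gamma and 3 of 11 alpha genes, and all 5 of the opposite order were gamma genes. Since 1 read is worth more RPKM in the less deeply read Differentiated lanes, genes with 1 or 2 reads can fall into the first order with nearly equal counts. Pcdhb9 did so with 1 and 1 reads in the Differentiated lanes against 0 and 1 reads in the Undifferentiated lanes.

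**Figure D2:**
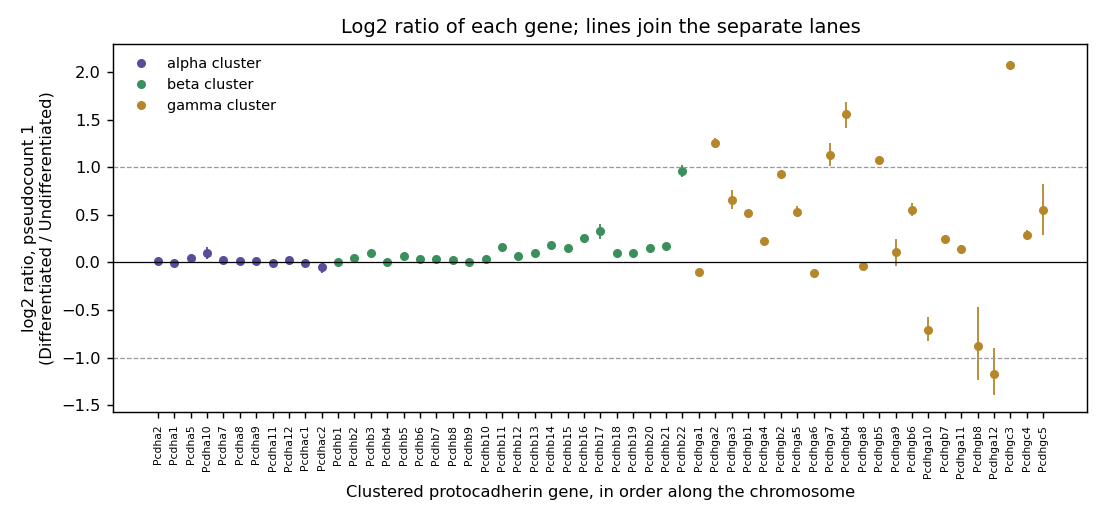
Log2 ratio (pseudocount 1) of all 55 genes in genomic order along the clusters, with a point for the lane means, a line that joins the values of the separate lanes and dashed lines at 2-fold. The highest point is Pcdhgc3 at 2.07 and the lowest Pcdhga12 at -1.17, while the 11 alpha genes all lie between -0.051 and 0.097.

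Pcdhgc3, a C-type gamma gene that promotes dendrite branching in mouse cortical neurons, had the highest level of any member in Differentiated cells. Its gene model spans chr18:37966064-38001527 (mm9, plus strand), from its own first exon to the end of the gamma constant exons. It had 13.95 and 14.35 RPKM in the Differentiated lanes, against 2.67 and 2.53 RPKM in the Undifferentiated lanes. The groups are far apart beside the lane spread, with 14.2 ± 0.283 RPKM in Differentiated and 2.60 ± 0.103 RPKM in Undifferentiated cells and a log2 ratio of 2.07. It made up 44.9% of the summed gamma level in Differentiated and 22.2% in Undifferentiated cells. Without Pcdhgc3 the remaining 21 gamma genes summed to 17.4 RPKM in Differentiated and 9.13 RPKM in Undifferentiated cells, so that the ratio of the cluster was 1.90.

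The other C-type gamma genes stayed below 1 RPKM. Pcdhgc4, which supports the survival of mouse cortical interneurons, had 0.476 and 0.390 RPKM in the Differentiated lanes, against 0.165 and 0.180 RPKM in the Undifferentiated lanes. The lanes did not overlap, and the log2 ratio was 0.29. Pcdhgc5, whose protein binds GABA-A receptors, had 0.556 and 0.865 RPKM in the Differentiated lanes, against 0.276 and 0.0487 RPKM in the Undifferentiated lanes. The lanes of each library lay apart, but the libraries did not overlap, and the log2 ratio was 0.56. The 3 gamma C genes summed to 15.3 ± 0.440 RPKM in Differentiated and 2.93 ± 0.254 RPKM in Undifferentiated cells, a ratio of 5.21. Their share of the gamma sum was 48.5% in Differentiated and 25.01% in Undifferentiated cells.

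Among the variable gamma genes, Pcdhgb4 was the second highest gamma gene of the Differentiated library. It had 2.76 and 2.27 RPKM in the Differentiated lanes, against 0.163 and 0.222 RPKM in the Undifferentiated lanes, with a log2 ratio of 1.56. Pcdhga2, the highest gamma A gene in Differentiated cells, had 2.00 and 2.02 RPKM in the Differentiated lanes, against 0.303 and 0.218 RPKM in the Undifferentiated lanes, with a log2 ratio of 1.25. Both genes sit in the upstream and middle stretches of the cluster, at chr18:37828759-38001526 for Pcdhga2 and chr18:37880208-38001526 for Pcdhgb4 (mm9, plus strand), and neither has lanes that overlap between the groups.

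Pcdhga7 and Pcdhgb5 passed the 2-fold line by little. Pcdhga7 had 1.93 and 1.64 RPKM in the Differentiated lanes, against 0.227 and 0.308 RPKM in the Undifferentiated lanes, with a log2 ratio of 1.13. Pcdhgb5 had 1.37 and 1.40 RPKM in the Differentiated lanes, against 0.139 and 0.115 RPKM in the Undifferentiated lanes, with a log2 ratio of 1.08. Under upper-quartile scaling their log2 ratios were 0.91 and 0.88, below the line, and Pcdhgb5 was also below it when ratios were centred on the median of genes at 1 RPKM or more (0.96) and under trimmed-mean scaling (0.99). Pcdhgb2 had 1.70 and 1.92 RPKM in the Differentiated lanes, against 0.431 and 0.522 RPKM in the Undifferentiated lanes, and at a log2 ratio of 0.93 it was not called. The lanes of these 3 genes did not overlap between the libraries.

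**Figure D3:**
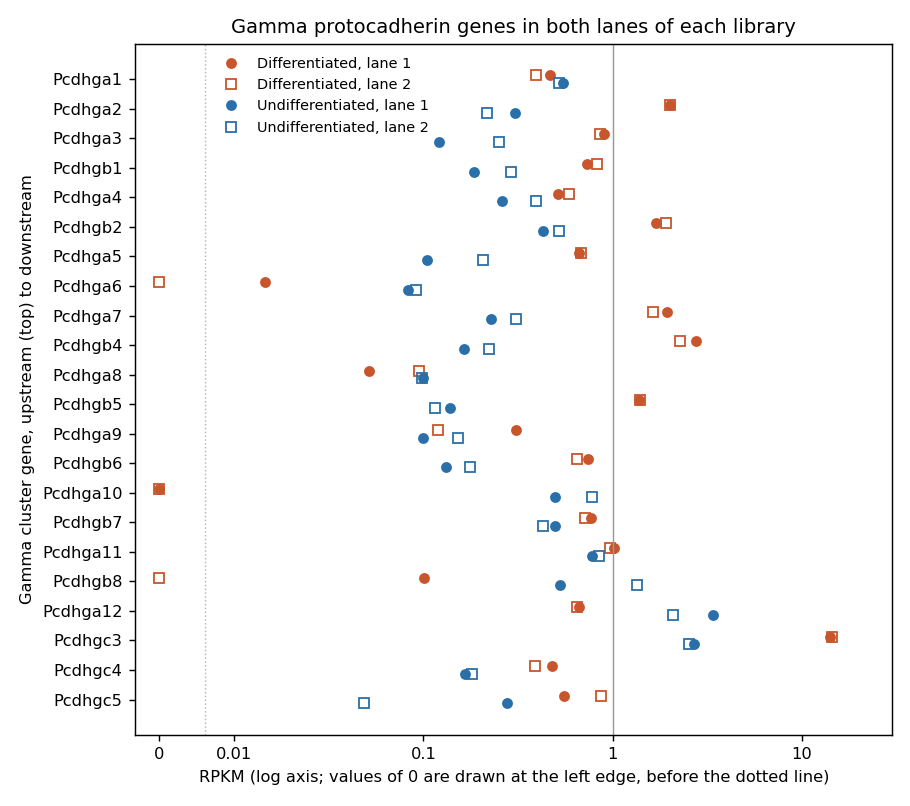
RPKM (log axis, values of 0 at the left edge) of the 22 gamma genes in both lanes of each library, from the upstream end (top) to the downstream end, with a line at 1 RPKM. Pcdhgc3 lies near 14 RPKM in both Differentiated lanes and below 3 RPKM in both Undifferentiated lanes, whereas both lanes of Pcdhga12 are higher in Undifferentiated than in Differentiated cells.

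Pcdhga12 ran the other way. It is the last gamma A gene, at chr18:37925234-38001527 (mm9, plus strand), and had the highest lane mean of the gamma genes in the Undifferentiated library, with 23.2% of the gamma sum. That rank came from lane 1, since in lane 2 Pcdhgc3 was higher (2.53 RPKM, against 2.07 RPKM for Pcdhga12). It had 0.664 and 0.648 RPKM in the Differentiated lanes, against 3.38 and 2.07 RPKM in the Undifferentiated lanes. The lanes did not overlap, but the 2 Undifferentiated lanes were themselves far apart. The log2 ratio was -1.17 from the lane means, -1.40 in lane 1 and -0.90 in lane 2, so in lane 2 alone Pcdhga12 was not called. In that lane Pcdhgb8 was the 1 lower gene instead.

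A further 5 gamma genes had both Differentiated lanes below both Undifferentiated lanes, all with library means below 1 RPKM. Pcdhga10 had 0 RPKM in both Differentiated lanes, against 0.493 and 0.778 RPKM in the Undifferentiated lanes. Pcdhgb8 had 0.101 and 0 RPKM in the Differentiated lanes, against 0.527 and 1.35 RPKM in the Undifferentiated lanes. Their log2 ratios were -0.71 and -0.88. Pcdhga6 had 0.0145 and 0 RPKM in the Differentiated lanes, against 0.0828 and 0.0913 RPKM in the Undifferentiated lanes. Pcdhga1, the most upstream gamma gene, and Pcdhga8 differed little, with log2 ratios of -0.099 and -0.034. Of the other gamma genes, 8 of the 9 that were higher below 1 RPKM had log2 ratios from 0.23 to 0.66, and Pcdhga11 had 0.14. Pcdhga9 had overlapping lanes.

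The values of gamma genes depend on how reads of the shared exons were divided. In the GENCODE vM21 annotation of GRCm38, a later build than that of the values, 54 of the 55 members were matched to a transcript. All 22 gamma members have 4 exons, of which 3 are shared, and these later exons have a median length of 2119 bp beside a median first exon of 2604 bp. Of the 36 bp windows of a gamma transcript, the read length of this study, a median of 46.0% also occur in another clustered protocadherin. Within the first exon the median was 3.19%, with 0 in the gamma C genes and a maximum of 41.5% in Pcdhga4. Genes outside the family share windows too: in Pcdhgc3 44.9% of all windows occur in other clustered protocadherins, a further 31.8% only in genes outside the family, and 23.3% are its own. Windows were matched on either strand, and BC037039, an antisense gene, overlaps the first exon of Pcdhgc3. Because the constant exons are shared, a read that lies within them carries no mark of the first exon it was spliced to. The sources used here do not say how the authors' counting assigned such reads. Moving a read between gamma models of similar length leaves the sum over the cluster nearly as it was, but not the values of the single genes.

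The gene, promoter and transcript tables do not give independent views of these genes. The gene value equalled the sum of its promoter values and the sum of its transcript values in every member, and all but 2 members have 1 promoter and all but 5 have 1 transcript. The second promoter of Pcdhga11 starts inside the Pcdhgc5 gene. It was listed at 0.0676 and 0.0839 RPKM in the Differentiated lanes, against 0.115 and 0.160 RPKM in the Undifferentiated lanes. Pcdhgb8 has 2 transcript forms with nearly the same start, and their values show how far a division can move between lanes. The form that starts upstream had 0.101 and 0 RPKM in the Differentiated lanes, against 0.0273 and 0.748 RPKM in the Undifferentiated lanes, while the other had 0 RPKM in both Differentiated lanes, against 0.4997 and 0.599 RPKM in the Undifferentiated lanes.

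Rows outside the rule overlap the gamma constant exons too, and 2 of them, found after the values were seen, ran almost level with Pcdhga10. PCDHA4-G, a model that runs from the alpha into the gamma cluster at chr18:37112343-38001526 (mm9, plus strand), had 0 RPKM in both Differentiated lanes, against 0.484 and 0.781 RPKM in the Undifferentiated lanes. MKIAA0327, which spans only the downstream end of the cluster, had 0 RPKM in both Differentiated lanes, against 0.482 and 0.779 RPKM in the Undifferentiated lanes. Pcdhga10 itself had 0 RPKM in both Differentiated lanes, against 0.493 and 0.778 RPKM in the Undifferentiated lanes. The 3 models thus had nearly the same value in every lane. In the GRCm38 annotation 0.724% of the 36 bp windows of Pcdhga10 are found in no other gene, and 54.4% are shared with a gene outside the family. That share counts matches on either strand and does not name the genes, so it does not show that they are these models. Whether the level of Pcdhga10 in either library is its own or that of an overlapping model was not tested.

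**Figure D4:**
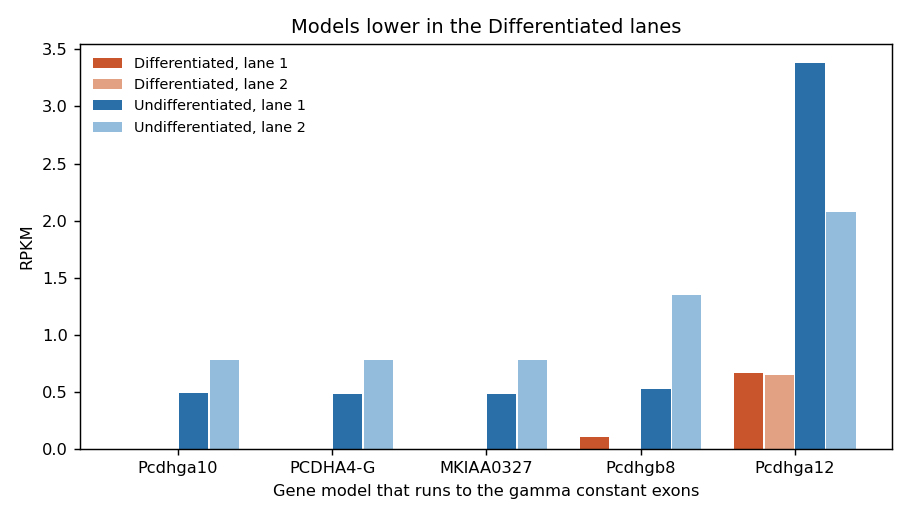
RPKM of Pcdhga10, Pcdhgb8 and Pcdhga12 and of 2 models outside the rule that overlap the gamma constant exons, in both lanes of each library, Differentiated to the left. Pcdhga10, PCDHA4-G and MKIAA0327 stand at 0 RPKM in both Differentiated lanes and at nearly equal levels of 0.482 to 0.781 RPKM in the Undifferentiated lanes.

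Adding both overlapping rows to the gamma members left the Differentiated sum at 31.5 RPKM, brought the Undifferentiated sum to 12.99 RPKM and gave a ratio of 2.43. Leaving out Pcdhga10 and Pcdhga12 gave 30.9 RPKM in Differentiated and 8.37 RPKM in Undifferentiated cells, a ratio of 3.69. By subfamily the gamma A sum was 8.26 ± 0.373 RPKM in Differentiated and 6.21 ± 0.396 RPKM in Undifferentiated cells, a ratio of 1.33. This is the smallest ratio of the 3 gamma subfamilies, and gamma A is the subfamily that holds both of those genes. The gamma B sum was 7.97 ± 0.282 RPKM in Differentiated and 2.59 ± 0.728 RPKM in Undifferentiated cells, a ratio of 3.08 that was 3.94 in lane 1 and 2.51 in lane 2. The gamma A share of the cluster was 26.2% in Differentiated and 52.9% in Undifferentiated cells, and the gamma B share 25.3% in Differentiated and 22.1% in Undifferentiated cells.

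Each length was taken as the deposited first exon plus the median later-exon length of the cluster in the GRCm38 models. On this basis the gamma cluster rested on about 9500 reads in Differentiated and 4100 reads in Undifferentiated cells. Of these about 4300 in Differentiated and 900 in Undifferentiated cells fell to Pcdhgc3, and about 220 in Differentiated and 1000 in Undifferentiated cells to Pcdhga12. Pcdhgb4 had about 730 in Differentiated and 64 in Undifferentiated cells. These numbers include shared reads as the authors' counting divided them. At the weak end Pcdhga6 had about 2 reads in Differentiated and 29 reads in Undifferentiated cells.

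The beta genes are each a single exon in the annotation, so their values can be read back as reads. Of the 73 lane values above 0 (of 88), 61 came to whole reads within 0.05 of a read, or 83.6%. The values that did not were those of Pcdhb18, Pcdhb20 and Pcdhb22, whose read numbers are rounded and approximate. Over all 22 genes the Differentiated library held 708 reads (371 and 337 by lane) and the Undifferentiated library 101 (55 and 46). Scaled by depth this was a ratio of 7.97, with an exact 95% interval of 6.46 to 9.92. Intervals here come from read numbers and cover counting error only. A median of 8.86% of the 36 bp windows of a beta gene are found in another clustered protocadherin, with a maximum of 18.5% in Pcdhb12. Pcdhb12 also shares 47.2% of its windows with genes outside the family and has 34.2% of its own, the lowest share among the beta genes.

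Pcdhb22, the most downstream beta gene at chr18:37678007-37681073 (mm9, plus strand), was the strongest in both libraries. It had 1.13 and 1.04 RPKM in the Differentiated lanes, against 0.0502 and 0.0918 RPKM in the Undifferentiated lanes. Rounded, these stood for 115 and 102 reads in the Differentiated lanes, against 6 and 10 reads in the Undifferentiated lanes. The depth-scaled ratio was 15.4 with an interval of 9.28 to 27.5. Before rounding the values were 114.8 and 101.8 in the Differentiated lanes, against 5.82 and 10.18 in the Undifferentiated lanes. None was a whole read, so the ratio and its interval are approximate. Its log2 ratio of 0.96 fell just short of a call because the pseudocount of 1 RPKM weighs on levels this low. It made up 36.0% of the beta sum in Differentiated and 19.1% in Undifferentiated cells. Of its 2 transcript forms, the longer had 1.08 and 1.01 RPKM in the Differentiated lanes, against 0.00238 and 0.00435 RPKM in the Undifferentiated lanes. The shorter, which lies within it, had 0.0532 and 0.0256 RPKM in the Differentiated lanes, against 0.0478 and 0.0875 RPKM in the Undifferentiated lanes. The forms overlap over nearly their whole length, and how reads were divided between them is not given. Their separate values are thus not read as a change of form.

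The higher beta read count did not rest on Pcdhb22 alone, since the other 21 genes held 491 reads in Differentiated and 85 reads in Undifferentiated cells, a ratio of 6.57 (5.21 to 8.37). Pcdhb17 had 29 and 43 reads in the Differentiated lanes, against 8 and 8 reads in the Undifferentiated lanes, a ratio of 5.12 (2.95 to 9.42). Pcdhb16 had 33 and 38 reads in the Differentiated lanes, against 3 and 1 reads in the Undifferentiated lanes, a ratio of 20.2 (7.54 to 76.1). Together with Pcdhb22 these were the 3 beta genes with the highest log2 ratios, at 0.33 for Pcdhb17 and 0.26 for Pcdhb16. Pcdhb15 had 8 and 12 reads in the Differentiated lanes and none in the Undifferentiated lanes. Its depth-scaled ratio was 7.58 with 3 reads over the library taken as the limit that a count of 0 allows. That ratio leaves out the counting error of the Differentiated reads, so it is not a lower limit. Of the 19 beta genes with reads in both libraries, 14 had an interval that lay wholly above 1. The share of all genes with such an interval was not computed, so this count is not read as a result about the beta genes.

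The weakest beta genes were read too few times for a direction. Pcdhb4 had 1 and 2 reads in the Differentiated lanes, against 1 and 2 reads in the Undifferentiated lanes, with a ratio of 1.14 and an interval of 0.152 to 8.49. Pcdhb9 and Pcdhb1 completed the 3 lowest log2 ratios of the cluster, with 2 reads in Differentiated and 1 read in Undifferentiated cells for Pcdhb9, and 1 read in Differentiated and 0 reads in Undifferentiated cells for Pcdhb1. Fewer than 10 reads were counted for 8 of the 22 genes in the Differentiated library and for 18 in the Undifferentiated library, and 3 genes had none in the Undifferentiated library.

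Beta genes had higher levels towards the downstream end of the cluster. Spearman's rho between the order along the cluster, from Pcdhb1 upstream to Pcdhb22 downstream, and the RPKM level was 0.80 in the Differentiated and 0.56 in the Undifferentiated library over 22 genes of the same libraries, given as a description. Pcdhb1 to Pcdhb10 together held 72 reads in Differentiated and 19 reads in Undifferentiated cells, a ratio of 4.31 (2.57 to 7.56). Pcdhb11 to Pcdhb22 held 636 reads in Differentiated and 82 reads in Undifferentiated cells, a ratio of 8.82 (6.996 to 11.2). The intervals of the upstream and downstream genes overlap at their edges, which does not show that the ratios are equal. The difference between these ratios was not tested.

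**Figure D5:**
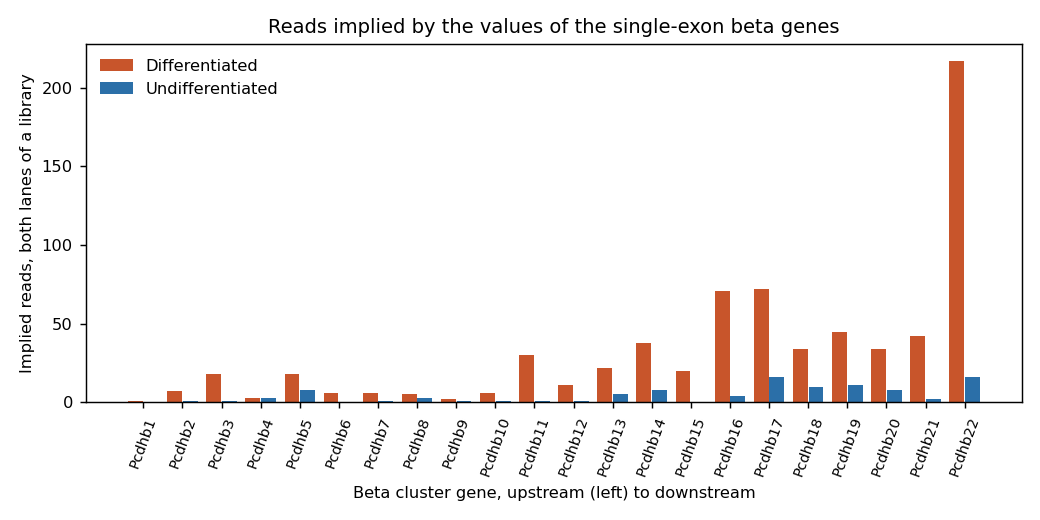
Implied reads (linear axis from 0) of the 22 beta genes in genomic order, summed over 2 lanes, for the Differentiated and the Undifferentiated library. Counts run up to 217 reads for Pcdhb22 in Differentiated cells and to 16 reads, for Pcdhb22 and Pcdhb17, in Undifferentiated cells.

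No alpha gene reached 1 RPKM in either library. The whole cluster rested on about 96 reads in Differentiated and 57 reads in Undifferentiated cells, and the 3 constant exons are shared here too, with a median of 62.5% of a transcript's 36 bp windows found in another clustered protocadherin. The 9 alpha genes outside the C type summed to 0.240 ± 0.0179 RPKM in Differentiated and 0.0615 ± 0.0112 RPKM in Undifferentiated cells, a ratio of 3.90. Pcdha10 was the highest alpha gene of the Differentiated library, and it had 0.125 and 0.0223 RPKM in the Differentiated lanes, against 0.00799 and 0 RPKM in the Undifferentiated lanes. Its Differentiated lanes lay far apart, on about 25 reads in all. Pcdha5 and Pcdha7 had the next highest log2 ratios, at 0.047 and 0.027, and Pcdha1, Pcdha11 and Pcdhac1 were listed at 0 in both Differentiated lanes.

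The alpha C genes did not share this direction. Pcdhac2, which mouse serotonergic axons need to spread evenly over their targets, was the highest alpha gene of the Undifferentiated library, at chr18:37303623-37347311 (mm9, plus strand). It had 0.0216 and 0.0570 RPKM in the Differentiated lanes, against 0.101 and 0.0532 RPKM in the Undifferentiated lanes. The lanes overlap, on about 14 reads in Differentiated and 31 reads in Undifferentiated cells, and a difference was not detectable at this depth. Its share of the alpha sum was 14.1% in Differentiated and 53.6% in Undifferentiated cells. Pcdhac1 had 0 RPKM in both Differentiated lanes, against 0 and 0.0103 RPKM in the Undifferentiated lanes.

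Other cadherins and the proteins that work with protocadherins are given for context by counts at 1 RPKM or more. Of 12 non-clustered protocadherins, which have no shared exons, 4 reached this level and all 4 were higher (against 19.1% of all genes at this level), with a median log2 ratio of 1.92 beside 0.22 over all 12. All but Pcdh1 reached it only in the Differentiated library, where they had to be the higher ones, so the count is not read as a result about them. Pcdh1, the next protocadherin gene downstream of the gamma cluster, had 14.01 ± 0.396 RPKM in Differentiated and 1.24 ± 0.181 RPKM in Undifferentiated cells (log2 ratio 2.74). Pcdh18 had 5.44 ± 0.652 RPKM in Differentiated and 0.0923 ± 0.108 RPKM in Undifferentiated cells (log2 ratio 2.56). Of 9 cadherins outside the protocadherins at this level, 4 were higher (against 19.1% of all genes at this level) and 5 lay between. Cdh2, the N-cadherin, had a log2 ratio of 3.90 and Cdh6 of 3.78. Cdh5 and Cdh6 reached the level only in the Differentiated library, where they had to be the higher ones. The count is thus not read as a result about these cadherins.

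Among 16 genes of promoter choice and silencing, 13 lay between, 2 were lower and 1 was higher. Their median log2 ratio was -0.01. Setdb1, a histone H3 lysine methyltransferase that helps to organise the clustered protocadherin locus in mouse neurons, had 11.1 ± 0.508 RPKM in Differentiated and 34.1 ± 0.548 RPKM in Undifferentiated cells (log2 ratio -1.54). Stag2, a cohesin subunit, had 30.8 ± 0.835 RPKM in Differentiated and 12.8 ± 0.512 RPKM in Undifferentiated cells (log2 ratio 1.21). Rest, a repressor of neuronal genes that was named after its value was seen, was the other lower gene (log2 ratio -1.16). Ctcf itself, likewise named afterwards, had 33.3 ± 4.23 RPKM in Differentiated and 42.3 ± 1.68 RPKM in Undifferentiated cells and was not called (log2 ratio -0.33).

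Of 14 interacting or downstream genes at 1 RPKM or more, 2 were higher and 12 lay between. Adam10, a protease that cuts gamma protocadherins at the cell surface, was among the higher ones, with 40.2 ± 0.0993 RPKM in Differentiated and 8.68 ± 2.36 RPKM in Undifferentiated cells (log2 ratio 2.09). Of 11 neighbouring genes at this level, 1 was higher (Pcdh1), 1 was lower (Diap1, log2 ratio -1.13) and the remaining 9 lay between. Their median log2 ratio was -0.17.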

How the data were processed

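The authors deposited 3 tables, of genes, promoters and transcripts, holding a value per lane and each library's mean. They name no unit. The deposited values were read as RPKM because value times length fell on whole multiples of a constant, within 5% of a read, in 82.9% to 83.2% of 3506 to 3557 low values of single-exon genes per lane; that constant gave the read numbers. The build is mm 9, per the submitters' processing notes. For the aligner, the counter, the annotation and multiply matching reads, the answer is: not given in the sources used here. Without strand in the kit, reads of overlapping and antisense genes cannot be told apart. Table starts were raised by 1, since end minus start equalled the RefSeq length in 16 of 22 beta genes.

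Ratios, calls and read intervals were computed in Python 3.11.15 (numpy 2.4.6, pandas 2.3.3, scipy 1.17.1), with a pseudocount of 1 RPKM, and tested on simulated data. No count test was run on RPKM. Members, gene lists and the rule for named genes (every member at 1 RPKM, the extremes of each cluster, C-type genes, and 2 genes per list) were chosen with earlier results of these data known. A gene that the rule names is not reported here. For the reads of alpha and gamma models, the length was the deposited first exon plus the cluster's median later-exon length. The latter came from GENCODE vM21 on GRCm38, used with no coordinates. No promoter sequences are given. Alternatives covered the pseudocount, floor, scaling, lanes and table.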

Additional observations from a re-analysis of the deposited data

How the results depend on the processing

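No direction reversed among the called values. Log2 ratios follow as summed alpha, beta and gamma values, where those moved. With a pseudocount of 0.1 they were 0.64, 2.72 and 1.42, and with 0.5 they were 0.28, 2.01 and 1.39. Centred on the median of genes at 1 RPKM or more they were 0.037, 1.42 and 1.23, and under upper-quartile scaling 0.090, 1.29 and 1.00. Beta and gamma alone moved to 1.42 and 1.19 under trimmed-mean scaling, to 1.73 and 1.59 with equal sums, and to 1.29 and 1.45 for the 26 members with lanes within 2-fold, none of them alpha genes, so that no alpha value exists there.

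Median log2 ratios moved as well. For all members they were 0.58 and 0.19 with pseudocounts of 0.1 and 0.5, -0.028 centred, 0.055 under upper-quartile scaling and 0.24 with lanes within 2-fold. For alpha they were 0.18 with a pseudocount of 0.1, -0.11 centred and 0 in lane 1. For beta they were 0.69 and 0.19 with pseudocounts of 0.1 and 0.5, -0.026 centred, 0.074 under upper-quartile, 0.086 under trimmed-mean and 0.12 under equal-sum scaling, 0.15 with lanes within 2-fold and 0.079 in lane 2. For gamma they were 1.17 and 0.63 with pseudocounts of 0.1 and 0.5, 0.28 centred and under upper-quartile scaling, 0.35 and 0.50 under trimmed-mean and equal-sum scaling, 0.52 with lanes within 2-fold, 0.31 in lane 1 and 0.29 in the promoter table. The medians of all members, of alpha and of beta thus changed sign when centred. For alpha and beta this was fixed in advance, since at their levels the pseudocount keeps the median log2 ratio below the shift.

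The count of higher members, 5 in the report, was 3 under upper-quartile scaling (against 13.2% of all genes tested). Centred it was 4 (against 16.1%), and under trimmed-mean scaling also 4 (against 16%). In lane 1 it was 6 (against 20%). With pseudocounts of 0.1 and 0.5 and with equal sums it was 7 (against 24.7%, 22.2% and 24.4%). It was 18, with 3 lower, with no floor and a pseudocount of 0.1, where the shares over all genes were 19.6% higher and 10.3% lower; this setting and the choices of members that follow were made after seeing the data. The summed gamma ratio was 1.22 with PCDHA4-G and MKIAA0327, 0.86 without Pcdhgc3 and 1.77 without Pcdhga10 and Pcdhga12, and the beta ratio 1.17 without Pcdhb22. The cause of the scaling differences was not tested. Relative to the main values, the median of genes at 1 RPKM or more shifted by -0.12 centred, -0.14 under trimmed-mean, -0.30 under upper-quartile and 0.21 under equal-sum scaling, and the share of higher among called genes, 69.3% in the report, was 59.4%, 58.1%, 43.9% and 80.5% in that order.

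No paired analysis was possible because each condition has 1 library. Depth limits alpha genes and most beta genes, and shared constant exons limit single gamma genes.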

Other observations

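Several transcripts outside the protocadherin family lie among the clusters. The kit does not record strand, so reads of those that overlap a gene on the other strand cannot be told apart from its reads. All were picked after their values were seen. Gm10545, on the minus strand inside the alpha cluster at chr18:37168523-37180333 (mm9), had 0.0731 and 0.0754 RPKM in the Differentiated lanes, against 0.000155 and 0 RPKM in the Undifferentiated lanes. Pcdha10, the highest alpha gene of the Differentiated library, averaged 0.0737 RPKM there, and its first exons lie outside Gm10545. The first exon of Pcdha12, at chr18:37179884-37182277, overlaps the edge of Gm10545. Pcdha12 had 0.0287 and 0.0757 RPKM in the Differentiated lanes, against 0.0104 and 0.0557 RPKM in the Undifferentiated lanes. Pcdha11, whose first exon lies inside Gm10545, had 0 RPKM in both Differentiated lanes. Whether reads of Gm10545 entered the alpha values was not tested. 3222401L13RIK, on the plus strand just upstream of Pcdhga1, had 1.26 and 1.55 RPKM in the Differentiated lanes, against 0.261 and 0.293 RPKM in the Undifferentiated lanes.

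An antisense gene, ENSMUSG00000085906, covers the stretch from Pcdhga10 to Pcdhga12, and had 0.437 and 1.04 RPKM in the Differentiated lanes, against 0.0375 and 0.452 RPKM in the Undifferentiated lanes. Its lanes overlap between the groups. BC037039, antisense at the start of Pcdhgc3, had 0.148 ± 0.0275 RPKM in Differentiated and 0.196 ± 0.120 RPKM in Undifferentiated cells, far below Pcdhgc3 itself. Between the beta and gamma clusters, Taf7, a subunit of the general transcription factor TFIID, had 56.9 ± 0.975 RPKM in Differentiated and 70.7 ± 1.25 RPKM in Undifferentiated cells.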
